A study of Mus musculus with 16 samples.

Results

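Core and linker histone genes were described in the RNA of 2 mouse CD4+ T cell subsets after treatment with venetoclax, an inhibitor of the anti-apoptotic protein BCL-2. The members were all genes whose symbol begins as a histone H1, H2A, H2B, H3 or H4 symbol does. There were 41 such genes of 11067 in the Treg table and 48 of 11171 in the Tcon table, and all 41 were also in the Tcon table. No measured value entered the choice. By type they comprised 3 H1, 14 H2A, 11 H2B, 8 H3 and 12 H4 genes. Of the 48, 39 carry a Hist symbol and are called cluster genes here, among them the processed pseudogene Hist3h2bb-ps. The other 9 are called variant genes. The split is by symbol and not by place: the cluster gene Hist4h4 and the variant gene H2afj lie close together on chromosome 6.

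The 16 libraries came from CD4+ FOXP3+ Treg and CD4+ FOXP3- Tcon of spleen and lymph node of FOXP3-IRES-GFP mice (strain B6.Cg-Foxp3tm2Tch/J, genotype WT), in which Foxp3-expressing cells carry GFP. The 4 groups of 4 libraries were Treg venetoclax, Treg vehicle, Tcon venetoclax and Tcon vehicle. Venetoclax was given at 50 mg/kg, and both treatments lasted 14 days. Age and sex are not stated in the labels, nor whether a library is a mouse or a pool, so p-values measure the spread between these libraries.

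Histones package DNA: the core histones H2A, H2B, H3 and H4 form the nucleosome, and the linker histone H1 binds where DNA enters and leaves it. Most cluster genes are transcribed in S phase, when new DNA needs new nucleosomes, and their mRNA ends at a short hairpin bound by SLBP in place of a poly(A) tail. Variant histones are made throughout the cell cycle from polyadenylated mRNA and replace the S phase forms at chosen sites, and most T cells at rest in spleen and lymph node are not in S phase.

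The hairpin is shown for the 8 cluster genes that passed the test in Treg or Tcon, because it is the end by which these mRNAs differ from polyadenylated ones. The hairpin, 6 base pairs closed by a loop of 4 bases, is in capitals, with up to 5 flanking bases on each side, written as DNA of the mRNA strand (GENCODE, GRCm38).
Hist1h4m: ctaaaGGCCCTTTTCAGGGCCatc
Hist1h4n: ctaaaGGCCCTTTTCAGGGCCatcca
Hist1h4c: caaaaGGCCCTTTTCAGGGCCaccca
Hist2h3c1: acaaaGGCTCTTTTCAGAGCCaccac
Hist1h2bk: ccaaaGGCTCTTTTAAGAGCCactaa
Hist3h2ba: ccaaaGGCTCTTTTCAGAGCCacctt
Hist1h1c: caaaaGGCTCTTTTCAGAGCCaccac
Hist3h2a: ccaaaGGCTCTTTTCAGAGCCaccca
Searched in the last 120 bases of the annotated transcript, the hairpin was found in 10 of the 48 members. Searched anywhere after the stop codon, a choice made after the first search, it was found in 28, of which 27 were cluster genes and 1 was the variant gene H2afx. The most common letters, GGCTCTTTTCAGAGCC, were in 14 of the 28. For 20 of the 48 members, at least 1 annotated transcript had an AATAAA polyadenylation signal in its last 60 bases. In Hist1h1c, Hist3h2a and Hist3h2ba the annotated transcript runs past the hairpin by 840, 1643 and 169 bases and ends near AATAAA, so these annotations hold both a hairpin and a poly(A) signal. Hist1h4m, Hist1h4n and Hist1h2bk stop 3, 31 and 30 bases after the hairpin with no AATAAA. Hist2h3c1 runs 1162 bases past its hairpin and ends near AATAAA, and Hist1h4c runs 454 bases past with no AATAAA near its end. The sources used here do not say whether poly(A)+ RNA was selected, and a difference in level cannot be told apart from a difference in how much of a gene's RNA is polyadenylated.

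**Figure D1:**
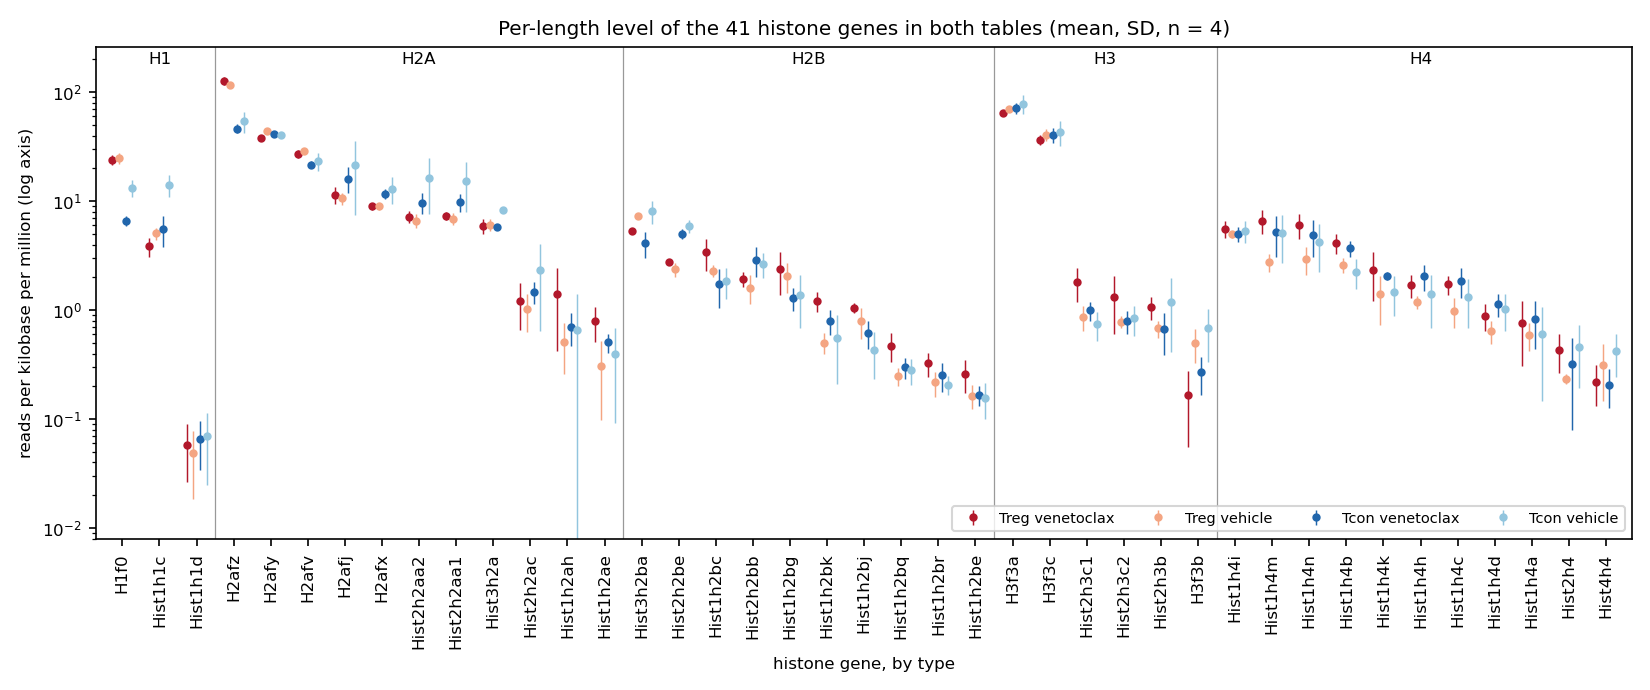
RPKM (reads scaled to exon length and library size), on a log axis, for the 41 histone genes in both tables, ordered by type and then by mean over 16 libraries; points are the means of 4 libraries and bars the SD, and a bar that runs off the axis reaches 0 or below. H2afz and H3f3a lie highest, and most cluster genes lie under 10.

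The highest levels per length were those of variant genes. Over all 16 libraries the mean was 86.2 RPKM (reads scaled to exon length and library size) for H2afz, which encodes the variant H2A.Z found at promoters, and 70.8 RPKM for H3f3a, which encodes the H3 variant laid down outside replication. H2afz was the higher in Treg, at 128 RPKM in venetoclax and 116 RPKM in vehicle, against 63.8 and 69.7 RPKM for H3f3a. In Tcon H3f3a was the higher, at 71.1 RPKM in venetoclax and 78.5 RPKM in vehicle, against 46.2 and 54.2 RPKM for H2afz. H2afy, the macroH2A gene, followed at 41 RPKM and H3f3c, annotated as a processed pseudogene of 411 bases, at 40.1 RPKM. Of linker histones H1f0, a form associated with cells that have left the cycle, had the highest level at 17.1 RPKM, against 7.15 RPKM for Hist1h1c. In Tcon vehicle alone the order was not kept, with 13.2 ± 2.3 RPKM for H1f0 and 14.1 ± 3.2 RPKM for Hist1h1c (SD, n = 4), which do not differ beyond their spread. Over all 16 libraries the highest H2B gene was Hist3h2ba at 6.21 RPKM and the highest H4 gene Hist1h4i at 5.23 RPKM. These orders were not kept in every group. In Tcon venetoclax Hist2h2be had 5.03 ± 0.56 RPKM and Hist3h2ba 4.13 ± 1.1 RPKM. In venetoclax Hist1h4m had 6.62 ± 1.6 RPKM in Treg and 5.17 ± 2.1 RPKM in Tcon. Hist1h4i had 5.56 ± 1.0 RPKM in Treg venetoclax and 4.99 ± 0.78 RPKM in Tcon venetoclax (SD, n = 4 each). Few reads lay behind most cluster genes: 5 of 41 members in Treg and 12 of 48 in Tcon averaged under 10 normalized counts, and a further 25 in Treg and 23 in Tcon averaged under 100. The 7 members found in the Tcon table alone (Hist1h2ac, Hist1h2ai, Hist1h2an, Hist1h3a, Hist1h3f, Hist1h4j and Hist3h2bb-ps) averaged 5.08 to 8.60 normalized counts, and the lowest mean in the Treg table was 8.48.

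Many members are near copies of each other. The coding sequence of 31 of 46 members was over 90% identical to that of another member, and Hist1h4m and Hist1h4n, like Hist2h2aa1 and Hist2h2aa2, were identical there. The processed pseudogene H3f3c has no annotated coding sequence to compare, and whether its reads came from H3f3a was not tested. How reads that fit several copies were counted is not given, so values of single cluster genes and of H3f3c are uncertain. H3f3b is no such near copy (81.5% coding identity to its closest member), but its values are uncertain too. H3f3b had a mean of 23.4 normalized counts in Treg and 33.3 in Tcon, while H3f3a had 5524 in Treg and 6220 in Tcon. The reason for the low level of H3f3b was not tested. Exons of another gene overlap 19 members, 6 of them on the same strand, among them Hist3h2a (Trim17) and Hist2h3c1 (Gm20634). Of the 39 cluster genes 38 have a single exon. Of those described most, Hist1h4m lies at chr13:21811746-21812147, Hist1h4n at chr13:21831767-21832196 and Hist1h1c at chr13:23738808-23740367. Hist3h2ba lies at chr11:58948920-58949533, Hist3h2a at chr11:58954685-58956830, and H1f0, outside the clusters, at chr15:79028450-79030504 (GRCm38).

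Depth was even, at 21335006 to 25027038 reads in Treg libraries and 22982210 to 24960570 in Tcon libraries. The 4 Treg markers summed to 3130 to 3880 CPM (reads scaled to library size) in Treg and 71.9 to 128 CPM in Tcon. The 6 CD4 T cell markers with a row summed to 3760 to 4030 CPM in Treg and 4020 to 4350 CPM in Tcon. B cell markers reached at most 21.1 CPM, dendritic cell markers 2.80 CPM and plasma cell markers 99.1 CPM, while erythroid markers ranged over 0.0825 to 33.8 CPM in Treg venetoclax and 0.121 to 12.6 CPM in Treg vehicle. NK cell markers reached 40.5 CPM and myeloid markers 17.2 CPM, both in Tcon venetoclax, against at most 28.2 and 13.2 CPM in Tcon vehicle. In Tcon the 3 genes listed as stroma markers (Col1a1, Pecam1 and Cdh5) summed to 217 to 248 CPM in venetoclax and 239 to 279 CPM in vehicle. The 2 measured stroma markers summed to 168 to 190 CPM in Treg venetoclax and 206 to 250 CPM in Treg vehicle, where Pecam1 was called lower, and both CD8 markers were lower in Treg at an unadjusted p under 0.05 by limma but were not called. The part of these markers in the results of either subset was not tested. Whether reads of the stroma list came from stromal cells or from the T cells was not tested either. Both Tcon libraries numbered 3 lay apart on the second principal component, at -24.6 for venetoclax and -29.7 for vehicle, with the other 6 between 2.4 and 22.7. Tcon vehicle library 3 held the highest value of 27 of the 48 members, and of 23.6% of all genes. Treg venetoclax library 1 held the highest value of 12 of the 41 members, 29.3%, and of 16.1% of all genes. The summed values of 4 Y-linked genes were 2447.8, 7658.1, 3928.6 and 1 in Treg venetoclax libraries 1 to 4, against 0, 7593.2, 1 and 0 in vehicle. In Tcon they were 1941.4, 8845.4, 4274.2 and 1 in venetoclax, against 0, 7978.6, 0 and 0 in vehicle. Y-linked RNA thus moved in part with treatment, with an intermediate level in venetoclax libraries 1 and 3 of both subsets. Results that rest on these libraries are given with and without them.

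In Treg, venetoclax went with more RNA of S phase H4 genes (Hist1h4m, Hist1h4n and Hist1h4c), the H3 gene Hist2h3c1 and the H2B gene Hist1h2bk. It went with less of the variants H2afy and H3f3b. The genes called higher rose to 1.72 to 2.3 times the vehicle level, as fitted on the log2(normalized count + 1) scale. The calls of Hist1h4c, Hist2h3c1 and Hist1h2bk ended under several of the alternatives given below. H2afy, H3f3b and the H2B gene Hist3h2ba fell. The 5 members that rose were 12.2% of the 41, with 10.7% of all genes called higher, and the 3 that fell were 7.32%, with 8.81% of all genes called lower. Both shares lay close to those of all genes, so the number of calls is no result about histone genes as a group (in either direction, 8 of 41 members and 19.6% of all genes). Changes were tested on that scale with limma and Benjamini-Hochberg adjustment over all genes of the table at 0.05. In bulk RNA, fewer cells that express a gene cannot be told apart from less RNA per cell.

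Hist1h4m and Hist1h4n each encode histone H4 and lie 19619 bases apart on chromosome 13, on opposite strands. Hist1h4m had 60.1, 60, 83.1 and 47.0 normalized counts in Treg venetoclax libraries 1 to 4, against 26.3, 19.8, 28.2 and 31.4 in Treg vehicle libraries 1 to 4. Every venetoclax library lay above every vehicle library, with a log2 change of 1.2 (SE 0.22, limma adjusted p = 0.00257). For Hist1h4n the values were 57.8, 57.0, 84.1 and 46.1 in venetoclax and 21.4, 25.0, 33.1 and 40.9 in vehicle, again without overlap (log2 change 1.01, SE 0.24, limma adjusted p = 0.0111). Venetoclax library 3 was highest for both, and with identical coding sequences these genes cannot count as separate evidence. The windows upstream of both are shown because the genes behind them moved together. They are the 250 bases before the RefSeq start (GRCm38.p6), at chr13:21811496-21811745 on the plus strand for Hist1h4m and chr13:21832198-21832447 on the minus strand for Hist1h4n, with TATAAA in capitals, and are 99.2% identical when aligned.
Hist1h4m: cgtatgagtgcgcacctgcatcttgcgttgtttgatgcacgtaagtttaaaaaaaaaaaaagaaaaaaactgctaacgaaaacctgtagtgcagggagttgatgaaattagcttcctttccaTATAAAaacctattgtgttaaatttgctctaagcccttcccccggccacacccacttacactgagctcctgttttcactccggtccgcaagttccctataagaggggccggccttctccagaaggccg
Hist1h4n: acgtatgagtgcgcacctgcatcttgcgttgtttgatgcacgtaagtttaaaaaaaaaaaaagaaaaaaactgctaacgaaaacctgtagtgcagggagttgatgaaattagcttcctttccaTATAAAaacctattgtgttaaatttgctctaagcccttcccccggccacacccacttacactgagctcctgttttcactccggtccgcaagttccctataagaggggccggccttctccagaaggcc
Hist1h4c, also an H4 gene, had 37.8, 25.4, 30.9 and 39.4 normalized counts in Treg venetoclax, against 18.5, 13.5, 17.5 and 27.6 in vehicle. Its groups overlapped through venetoclax library 2 and vehicle library 4, and it only just passed (log2 change 0.79, SE 0.26, limma adjusted p = 0.0489). All but 1 of the 11 H4 genes in the Treg table had a positive change, with a median of 0.63 and a lowest value of -0.47 for Hist4h4, and 3 passed. Summed over the 11 genes, H4 reads were 18.3, 14.6, 18.8 and 14.9 CPM in venetoclax, against 11.4, 11.2, 10.7 and 11.4 CPM in vehicle. The groups did not overlap, and the 4 vehicle libraries were close together. Hist1h4m and Hist1h4n are part of this sum, with means of 2.66 and 2.61 CPM in venetoclax and 1.11 and 1.27 CPM in vehicle. The sum is thus not separate from their calls, and the sum without them is not given. Hist1h4i, the H4 gene with the highest mean per length over all 16 libraries, had 95.6, 90.6, 117.9 and 75.9 in venetoclax. In vehicle it had 91.5, 80.1, 91.5 and 80.8, and the groups overlapped (log2 change 0.13, SE 0.15, limma adjusted p = 0.590).

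**Figure D2:**
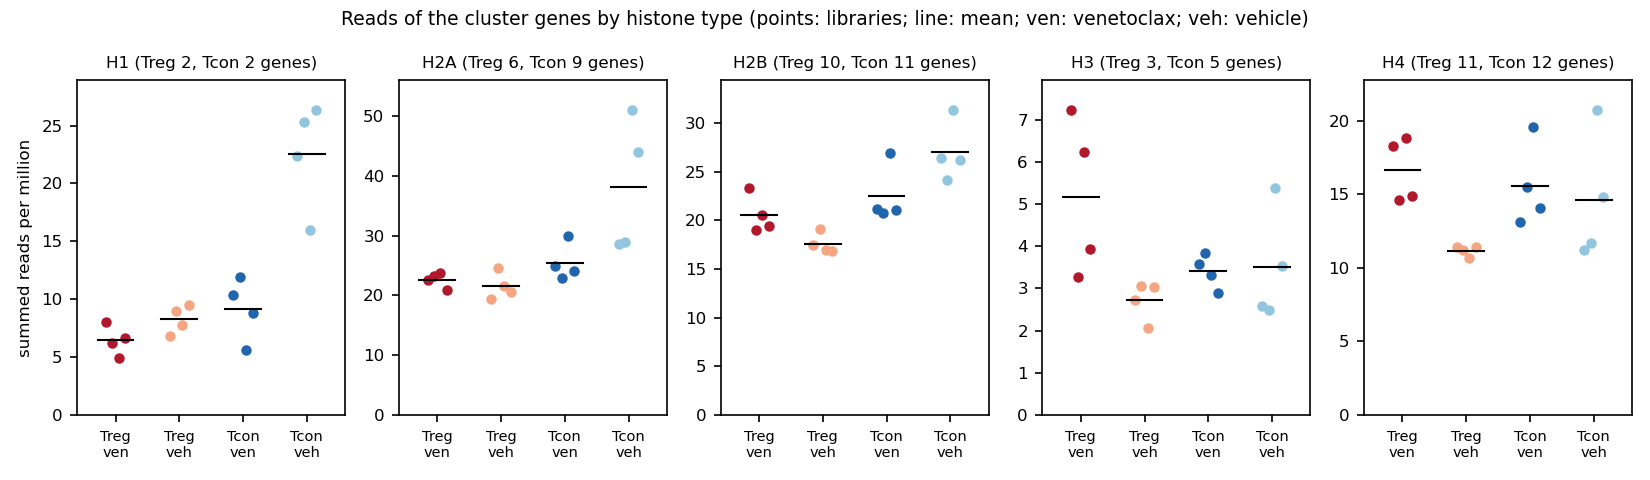
Summed CPM of the cluster genes of each histone type in every library (points; the line is the mean of 4), with Treg groups left of Tcon groups and the number of genes in each title. H4 sums of Treg venetoclax lie between 14.6 and 18.8, above the vehicle sums, and H1 sums of Tcon venetoclax lie between 5.62 and 11.9, below the vehicle sums.

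Among H3 genes, Hist2h3c1 encodes an S phase H3. It had 99.0, 51.9, 102.4 and 56.6 normalized counts in Treg venetoclax, against 39.9, 42.7, 23.4 and 44.7 in vehicle (log2 change 1.00, SE 0.26, limma adjusted p = 0.0191). Venetoclax libraries 1 and 3, those with the intermediate Y-linked level, were the highest. H3f3b, which encodes the same variant protein as H3f3a, went the other way, with 15.6, 20.4, 5.8 and 4.8 in venetoclax and 25.3, 44.7, 24.3 and 46.6 in vehicle. No venetoclax value reached a vehicle value, and the log2 change was -1.67 (SE 0.42, limma adjusted p = 0.0142). H3f3a had 5177.0, 5144.8, 5296.8 and 5366.3 in venetoclax, against 5894.9, 5294.1, 6250.7 and 5765.4 in vehicle, with overlap (log2 change -0.14, SE 0.05, limma adjusted p = 0.0725).

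Of the 10 H2B genes in Treg, 9 had a positive change and 1 passed upward. That gene, Hist1h2bk, had 14.5, 11.2, 11.6 and 17.3 normalized counts in venetoclax and 5.8, 6.2, 6.8 and 3.8 in vehicle (log2 change 1.14, SE 0.34, limma adjusted p = 0.0338). The groups did not overlap, but a vehicle mean of 5.67 rests on a handful of reads. Hist3h2ba, a separate H2B gene on chromosome 11, was the exception and had 72.3, 78.4, 78.3 and 76.8 in venetoclax, against 105.1, 116.5, 103.2 and 104.5 in vehicle. Both groups were tight and apart (log2 change -0.48, SE 0.12, limma adjusted p = 0.0150).

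None of the 11 H2A genes rose in Treg by limma's test, which found 2 of them higher at an unadjusted p under 0.05, and neither edgeR nor DESeq2 called one higher. Hist1h2ae alone was called higher with the replicate block and without vehicle library 4. The macroH2A gene H2afy, whose protein carries a large extra domain and is associated with silent chromatin, fell slightly. It had 6051.2, 5998.5, 5960.6 and 6388.0 normalized counts in venetoclax, against 7099.8, 6881.6, 7235.0 and 7157.3 in vehicle (log2 change -0.22, SE 0.04, limma adjusted p = 0.00474). H2afz had 4788.9, 5322.8, 5508.4 and 5782.1 in venetoclax and 4605.4, 4608.6, 5100.8 and 5247.6 in vehicle, with overlap (log2 change 0.13, SE 0.06, limma adjusted p = 0.177). None of the 3 H1 genes passed limma's test in Treg, where 1 was lower at an unadjusted p under 0.05; edgeR called 0 and DESeq2 called Hist1h1c lower. H1f0 had 1073.2, 1183.4, 1088.0 and 1291.4 in venetoclax, against 1386.9, 1187.0, 1179.1 and 1057.5 in vehicle (log2 change -0.05, SE 0.08, limma adjusted p = 0.707). For Hist1h1c the values were 181.3, 130.2, 113.0 and 143.1 in venetoclax and 157.7, 202.9, 180.1 and 209.0 in vehicle (log2 change -0.41, SE 0.15, limma adjusted p = 0.0636). Hist3h2a, the neighbour of Hist3h2ba, had 278.0, 339.9, 334.3 and 243.9 in venetoclax and 288.1, 364.1, 290.1 and 292.6 in vehicle (log2 change -0.05, SE 0.12, limma adjusted p = 0.795).

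Just outside the threshold lay the H4 gene Hist1h4b, with 38.5 ± 7.92 normalized counts in Treg venetoclax and 24.4 ± 3.43 in Treg vehicle, and the H2B gene Hist1h2bq, with 22.4 ± 6.46 in venetoclax and 11.9 ± 2.22 in vehicle (SD, n = 4 each; limma adjusted p = 0.0576 and 0.0592). Just inside it lay Hist1h4c, with 33.4 ± 6.44 in venetoclax and 19.3 ± 5.92 in vehicle. The largest estimate among members that did not pass was that of the H2A gene Hist1h2ae, with 13.1 ± 4.73 in venetoclax and 5.14 ± 3.49 in vehicle (log2 change 1.35, SE 0.51, limma adjusted p = 0.0790). Of the remaining variants, H2afx, whose protein is phosphorylated at DNA breaks, had 293 ± 20.6 in venetoclax and 294 ± 22.2 in vehicle. H2afv, a second H2A.Z gene, had 1034 ± 79.4 in venetoclax and 1121 ± 68.3 in vehicle.

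The 33 members that did not pass in Treg had log2 changes of -0.47 to 1.35 and limma adjusted p of 0.0576 to 0.982. Cluster genes had a median change of 0.47, with 28 of 32 above 0, and variant genes a median of -0.12, with 2 of 9 above 0; the median of all 11067 genes was 0.005. Between venetoclax and vehicle, 10 of 41 members had no overlap, against 22.7% of all genes. Without the venetoclax libraries numbered 1 and 3, none of the 8 called members passed (limma adjusted p of 0.0621 to 0.299). The log2 change was then 0.56 for Hist2h3c1, against 1.00 with all libraries, 1.00 for Hist1h4m and 0.79 for Hist1h4n. It stayed close to its value with all libraries for Hist1h4c (0.73), Hist1h2bk (1.19), H2afy (-0.20), Hist3h2ba (-0.46) and H3f3b (-1.64). In this fit all genes gave 371 higher and 243 lower calls, against 1189 and 975 with all libraries. Without both libraries numbered 3, H2afy, H3f3b and Hist1h4m passed and the other 5 did not. Leaving out vehicle library 3 or venetoclax library 1 or 3 ended the call of Hist2h3c1, as did vehicle library 1 or 4 or venetoclax library 1, 3 or 4 for Hist1h2bk. For Hist1h4c it was vehicle library 1, 2 or 3 or venetoclax library 1, 3 or 4, and neither edgeR nor DESeq2 called it. Hist1h2bk was not called by DESeq2 (adjusted p = 0.0617), with the replicate block (adjusted p = 0.0512) or with Y-linked RNA as a covariate (adjusted p = 0.0685), and Hist2h3c1 not with that covariate (adjusted p = 0.0793). Upper-quartile scaling gave 969 higher and 1348 lower calls over all genes and added H3f3a and Hist1h1c to the members called lower.

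**Figure D3:**
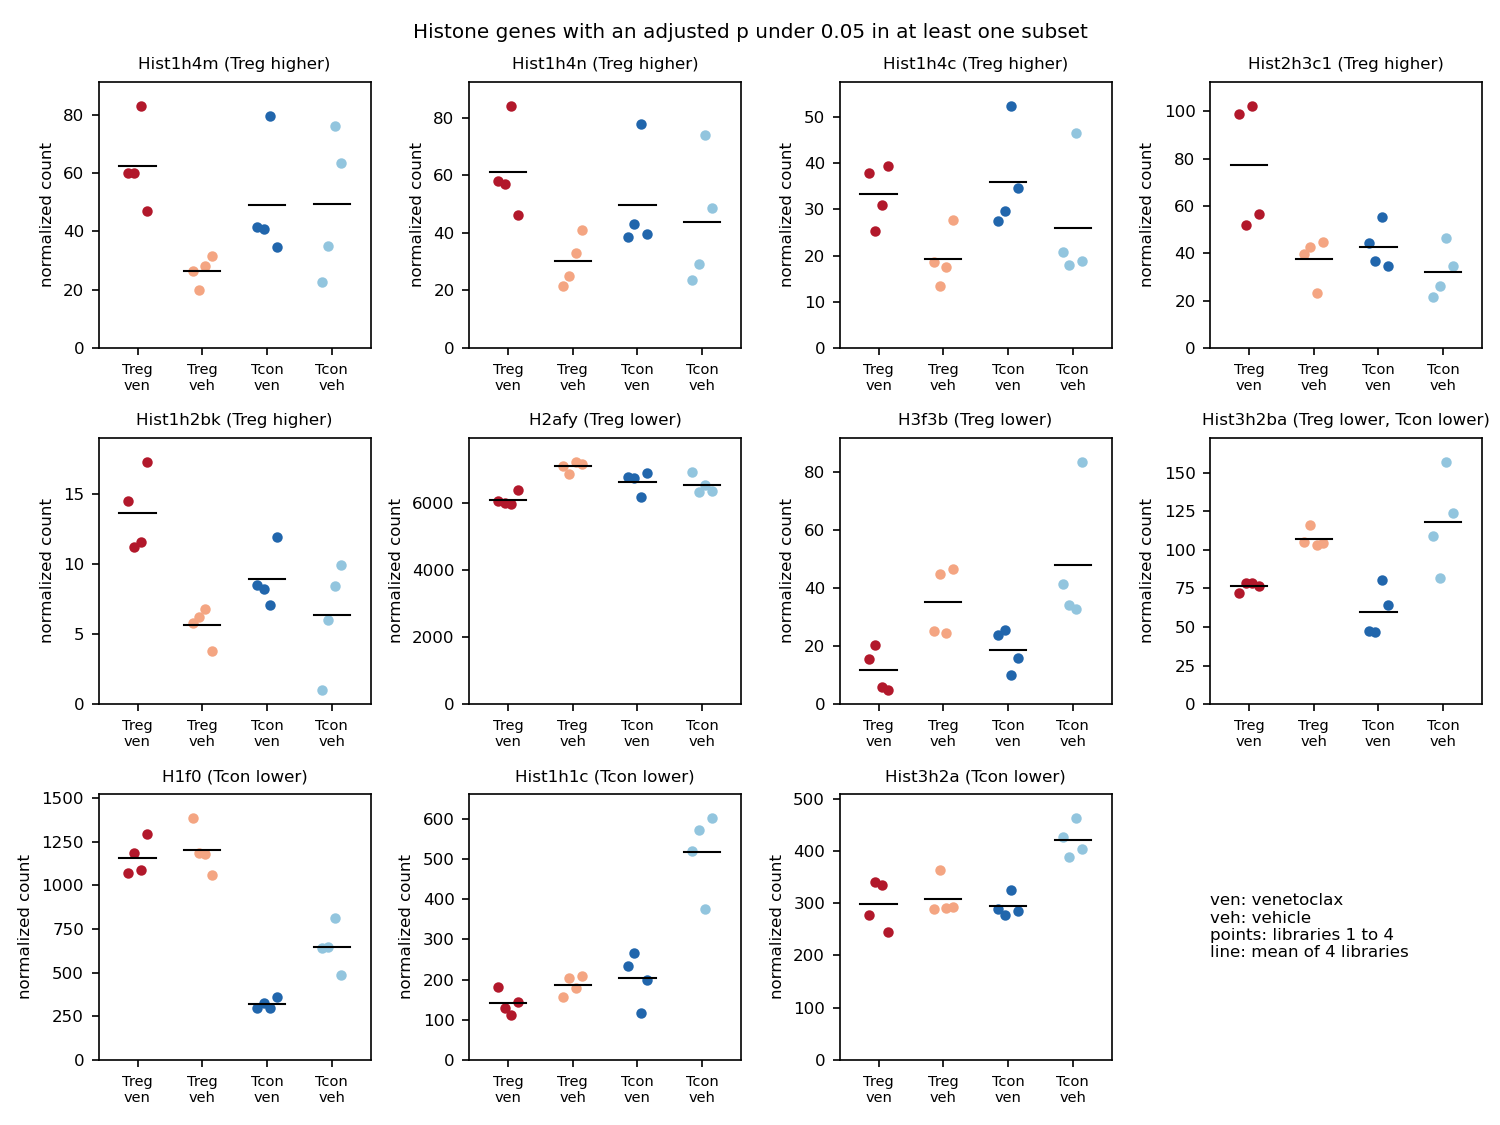
Normalized counts of the 11 members that passed the test in Treg or Tcon, in every library (points; the line is the mean of 4), on axes that start at 0, with venetoclax left of vehicle in Treg and then in Tcon. H1f0 and Hist1h1c are low in Tcon venetoclax, between 116.9 and 360.5, and Hist1h4m and Hist1h4n are high in Treg venetoclax.

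In Tcon, venetoclax went with less linker histone RNA. On the fitted scale H1f0 fell to 0.503 times and Hist1h1c to 0.384 times the vehicle level, and the neighbouring core histone genes Hist3h2a and Hist3h2ba fell to 0.701 and 0.511 times. No member rose. Thus 4 of 48 members, 8.33%, were called lower, with 2.99% of all genes called lower, and 0 were called higher, with 3.92% of all genes called higher and 6.91% called in either direction. By limma 1 member was higher at an unadjusted p under 0.05, and neither edgeR nor DESeq2 called one.

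H1f0 had 296.2, 327.7, 299.4 and 360.5 normalized counts in Tcon venetoclax libraries 1 to 4, against 642.1, 648.7, 810.6 and 486.6 in Tcon vehicle libraries 1 to 4. Every venetoclax value lay below every vehicle value (mean 321 ± 29.9 in venetoclax and 647 ± 132 in vehicle, SD, n = 4 each). The log2 change was -0.99 (SE 0.14, limma adjusted p = 0.00298). Hist1h1c, the cluster H1 gene with the highest level in these cells, had 234.9, 266.4, 116.9 and 198.5 in venetoclax, against 520.2, 572.8, 376.8 and 602.8 in vehicle. Here too the groups were apart, and the libraries numbered 3 were the lowest of each (log2 change -1.38, SE 0.24, limma adjusted p = 0.00734). The third linker gene, Hist1h1d, had 11.5 ± 5.62 in venetoclax and 12.5 ± 8.62 in vehicle (SD, n = 4 each; log2 change -0.07, limma adjusted p = 0.955).

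Hist3h2a and Hist3h2ba encode an H2A and an H2B and lie 5151 bases apart on chromosome 11. Hist3h2a had 289.6, 277.7, 325.6 and 285.4 normalized counts in Tcon venetoclax, against 425.8, 388.8, 463.3 and 404.2 in vehicle (log2 change -0.51, SE 0.09, limma adjusted p = 0.00902). For Hist3h2ba the values were 47.2, 47.0, 80.6 and 64.2 in venetoclax and 109.2, 82.0, 157.3 and 124.1 in vehicle (log2 change -0.97, SE 0.23, limma adjusted p = 0.0337). Neither gene's groups overlapped, though for Hist3h2ba venetoclax library 3 came close to vehicle library 2. Upstream windows of the 4 genes that fell in Tcon are shown to compare what letters they hold (250 bases before the RefSeq start, GRCm38.p6, all on the plus strand: H1f0 chr15:79027962-79028211, Hist1h1c chr13:23738557-23738806, Hist3h2a chr11:58954435-58954684 and Hist3h2ba chr11:58948661-58948910). Capitals mark the octamer, CCAAT and TATAAA, on either strand.
H1f0: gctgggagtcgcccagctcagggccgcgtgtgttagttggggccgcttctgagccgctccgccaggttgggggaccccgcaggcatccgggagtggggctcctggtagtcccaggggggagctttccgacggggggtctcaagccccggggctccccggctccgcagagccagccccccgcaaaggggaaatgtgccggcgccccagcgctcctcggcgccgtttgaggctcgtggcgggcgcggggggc
Hist1h1c: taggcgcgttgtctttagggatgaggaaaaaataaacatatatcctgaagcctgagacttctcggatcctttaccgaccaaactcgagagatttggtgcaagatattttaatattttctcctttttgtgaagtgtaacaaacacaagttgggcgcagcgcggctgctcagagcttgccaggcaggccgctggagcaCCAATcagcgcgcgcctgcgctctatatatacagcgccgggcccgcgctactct
Hist3h2a: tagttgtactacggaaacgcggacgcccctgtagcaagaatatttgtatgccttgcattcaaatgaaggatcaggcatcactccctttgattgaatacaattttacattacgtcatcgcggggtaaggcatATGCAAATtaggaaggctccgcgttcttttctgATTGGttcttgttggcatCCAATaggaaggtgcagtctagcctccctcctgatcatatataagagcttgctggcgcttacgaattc
Hist3h2ba: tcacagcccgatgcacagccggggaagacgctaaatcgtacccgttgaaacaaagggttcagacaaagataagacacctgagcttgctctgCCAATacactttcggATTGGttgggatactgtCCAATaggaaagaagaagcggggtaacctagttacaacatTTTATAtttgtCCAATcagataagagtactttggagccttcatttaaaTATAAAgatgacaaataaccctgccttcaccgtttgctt
Windows of 300 bases, from 250 before to 50 after the start, were at hand for 41 of the 48 members and 26994 genes in all. The letters ATTTGCAT, the octamer bound by Oct factors, were on either strand in 10 of the 41 members, 24.4%, and in 2.0% of all genes with a window. They were in 4 of 8 H2B and 5 of 13 H2A genes and in 0 of 11 H4 genes. CCAAT was in 73.2% of members and 41% of all genes, and TATAAA in 43.9% of members and 15.7% of all genes. The E2F-type letters TTTCGCGC or TTTGGCGC were in 9.8% of members and 0.9% of all genes. Over the 9220 genes of the tables with a window, the shares were 1.6% for the octamer, 42.9% for CCAAT, 8.6% for TATAAA and 1.9% for the E2F-type letters. No motif is in the upstream windows of all 4 genes that fell in Tcon, and CCAAT is in all but that of H1f0. H1f0 has no match, Hist1h1c 1 CCAAT, Hist3h2a the octamer with CCAAT, and Hist3h2ba CCAAT with TATAAA. The H1f0 window follows the RefSeq start and ends at 79028211, short of the GENCODE start at 79028450. The windows of Hist3h2a and Hist3h2ba were 53.3% identical and those of H1f0 and Hist1h1c 47.8%.

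Other members in Tcon had log2 changes of -1.28 to 0.80 and limma adjusted p of 0.0618 to 0.989. H3f3b stood at the low end, with 23.6, 25.5, 10.1 and 15.8 normalized counts in venetoclax, against 41.3, 34.0, 32.7 and 83.4 in vehicle (log2 change -1.28, SE 0.36, limma adjusted p = 0.0618). The groups were apart, as in Treg, and DESeq2 called it. Between venetoclax and vehicle, 5 of 48 members had no overlap in Tcon (the 4 called genes and H3f3b), against 16.3% of all genes. Of 12 H4 genes, 9 had a positive change (median 0.23) and 0 passed by limma, edgeR or DESeq2, with 1 higher and 1 lower by limma at an unadjusted p under 0.05. Hist1h4m had 41.5, 40.8, 79.6 and 34.6 in venetoclax and 22.6, 35, 76.0 and 63.6 in vehicle, with both libraries numbered 3 the highest (log2 change 0.07, SE 0.38, limma adjusted p = 0.943). H2afz and H3f3a were both highest in vehicle library 3. H2afz had 1810.3, 1904.8, 2237.9 and 1777.6 in venetoclax, against 1972.6, 1929.2, 3219.1 and 2069.6 in vehicle (log2 change -0.22, limma adjusted p = 0.439). H3f3a had 5587.4, 5215.4, 6960.7 and 5735.7 in venetoclax and 6077.2, 5363.7, 8989.2 and 5831.5 in vehicle (log2 change -0.14, limma adjusted p = 0.658). For Hist1h4i the values were 86.8, 76.6, 105.8 and 73.1 in venetoclax and 92.4, 86.0, 126.7 and 67.5 in vehicle (log2 change -0.10, limma adjusted p = 0.828). H2afy, called lower in Treg, had 6766.6, 6739.4, 6178.5 and 6886.2 in venetoclax, against 6921.0, 6332.3, 6541.6 and 6350.9 in vehicle (log2 change 0.02, limma adjusted p = 0.887).

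The cluster genes called higher in Treg were not called in Tcon, and the values of each overlapped there. Hist1h4n had 38.7, 42.9, 77.6 and 39.5 normalized counts in Tcon venetoclax, against 23.6, 29.0, 73.9 and 48.7 in Tcon vehicle (log2 change 0.25, SE 0.36, limma adjusted p = 0.745). For Hist1h4c the values were 27.4, 29.6, 52.4 and 34.6 in venetoclax and 20.7, 18, 46.4 and 18.9 in vehicle (log2 change 0.52, SE 0.33, limma adjusted p = 0.391). The libraries numbered 3 were the highest of their group for both genes, as for Hist1h4m. Hist2h3c1 had 44.3, 36.7, 55.4 and 34.6 in venetoclax and 21.6, 26.0, 46.4 and 34.8 in vehicle (log2 change 0.43, SE 0.26, limma adjusted p = 0.373). For Hist1h2bk the values were 8.5, 8.2, 7.1 and 11.9 in venetoclax and 1.0, 6.0, 8.4 and 9.9 in vehicle (log2 change 0.66, SE 0.53, limma adjusted p = 0.512). Summed over the 32 cluster genes in both tables, Tcon had 71.7, 72.6, 83.7 and 69.3 CPM in venetoclax, against 89.5, 91.3, 120 and 112 CPM in vehicle, without overlap. The 2 cluster H1 genes made up 10.4, 11.9, 5.62 and 8.78 CPM of this in venetoclax. In vehicle they made up 22.4, 25.3, 16 and 26.3 CPM. The sums of the other types, taken over all 39 cluster genes of Tcon, each overlapped between Tcon groups. Among them the H2A mean was also lower, at 25.4 ± 3.1 CPM in venetoclax and 38.1 ± 11 CPM in vehicle (SD, n = 4 each). The H1 means were 9.18 ± 2.7 CPM in venetoclax and 22.5 ± 4.6 CPM in vehicle. In Treg the sums over the 32 genes were 79.4, 66.4, 74.4 and 65.8 CPM in venetoclax and 57.8, 66.9, 59.1 and 61.3 CPM in vehicle, which overlap. The authors' deposited table calls the same 4 genes lower in Tcon as well as H3f3b.

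By hairpin and annotated end, 3 of the 9 members with both a hairpin and AATAAA fell in Tcon, 0 of the 19 with a hairpin alone and 1 of the 20 without a hairpin (H1f0). In Treg the counts were 1 higher and 1 lower of 8 with both, 4 higher of 16 with a hairpin alone, and 2 lower of 17 without a hairpin. All genes gave 2.99% lower in Tcon, and 10.7% higher and 8.81% lower in Treg. The grouping rests on the search made second and takes a hairpin or AATAAA from any annotated transcript of a member. Its counts were not tested. Median log2 changes in Tcon were -0.51, -0.07 and -0.12 for the same 3 groups, against 0.27, 0.41 and 0.18 in Treg.

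Without both Tcon libraries numbered 3 the 4 genes passed with H3f3b added, so 5 fell and 0 rose. Without venetoclax libraries 1 and 3 only Hist1h1c passed (log2 change -1.15, limma adjusted p = 0.0432), and with Y-linked RNA as a covariate H1f0 and Hist1h1c passed while Hist3h2a (adjusted p = 0.0537) and Hist3h2ba (adjusted p = 0.162) did not. Leaving out Tcon venetoclax library 1, 2 or 4, or vehicle library 1 or 4, also ended the call of Hist3h2ba.

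**Figure D4:**
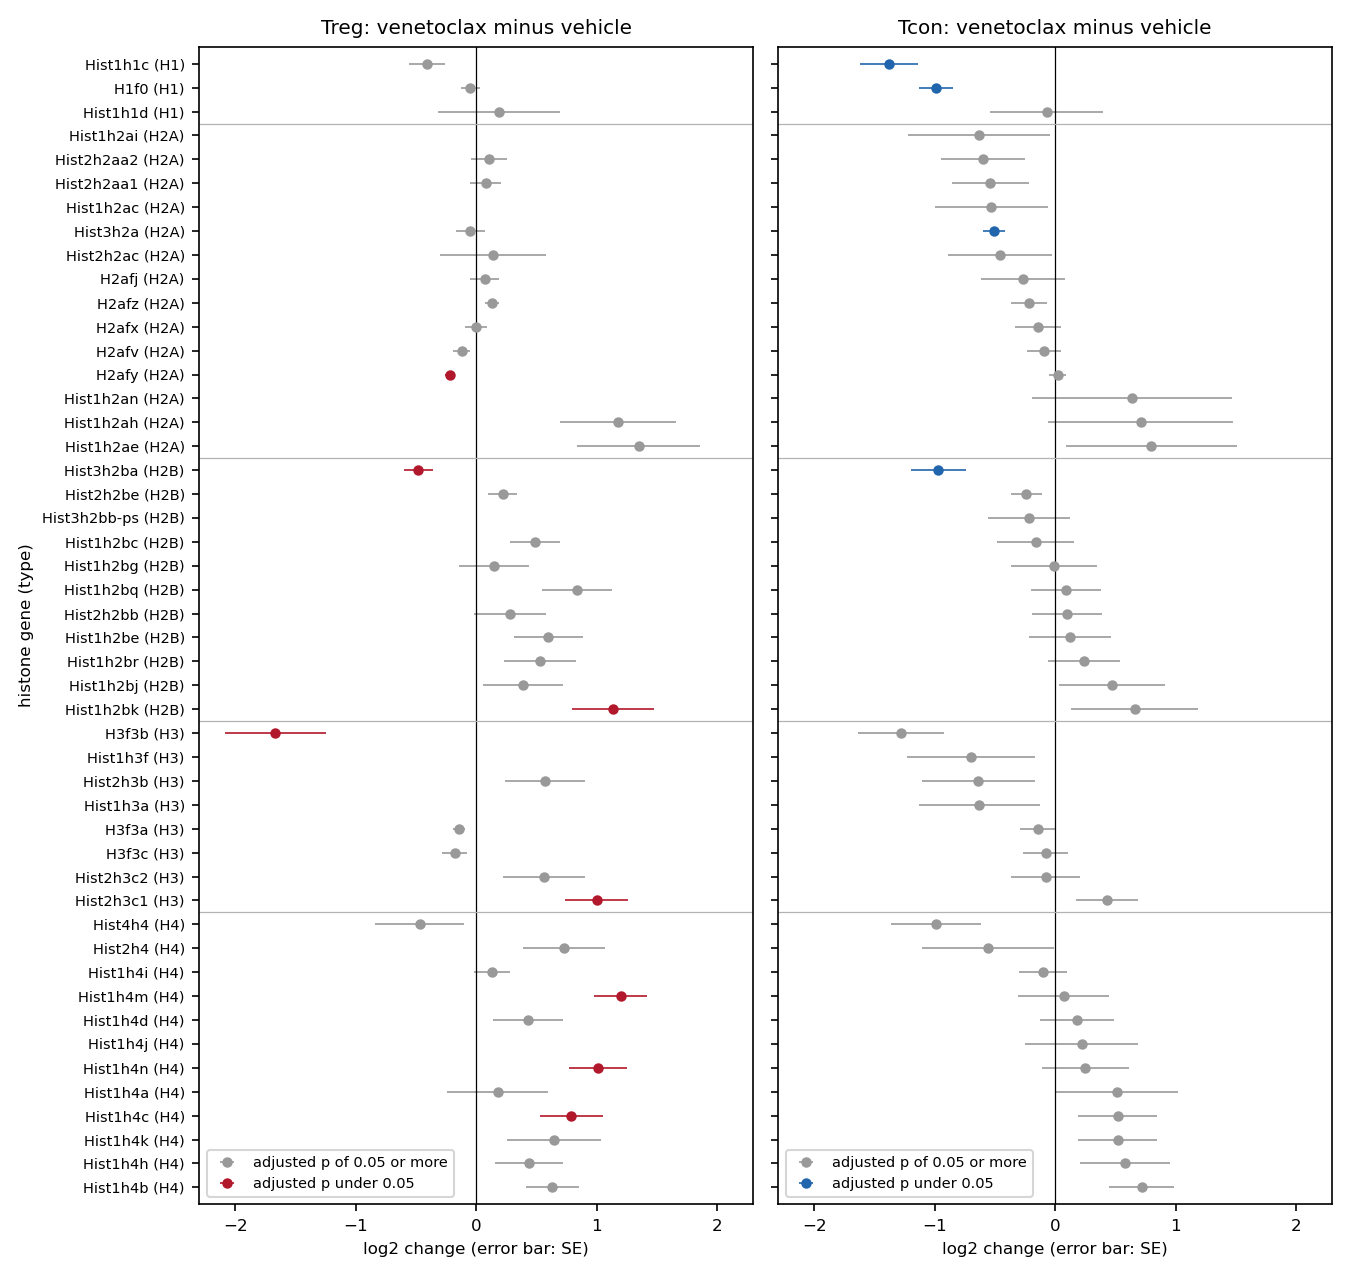
Log2 change of venetoclax over vehicle for all members, in Treg (left) and Tcon (right), with SE bars, grouped by type and ordered by the Tcon change; 7 genes have no Treg value. Called members are coloured: 5 right and 3 left of 0 in Treg, and 4 left of 0 in Tcon.

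The change in Treg minus the change in Tcon was tested over all 16 libraries for the 41 members in both tables. H1f0 alone passed, with a difference of 0.94 (SE 0.17, limma adjusted p = 0.0122), made of a log2 change of -0.05 in Treg and -0.99 in Tcon. That is 2.44% of members called higher, with 0.334% of all genes called higher. No member was called lower, with 0.965% of all genes called lower and 1.3% called in either direction; by limma 6 members were higher and 1 lower at an unadjusted p under 0.05, and edgeR called 0 lower and DESeq2 1. Libraries with the same code in both subsets deviated together, and with that code as a replicate block 3 members passed, at 3.61% of all genes in either direction: H1f0 (0.94, limma adjusted p = 0.00187) and Hist1h1c higher and H2afy lower. Hist1h1c had a difference of 0.97 (SE 0.30, limma adjusted p = 0.175 without the block) and H2afy of -0.24 (SE 0.07, limma adjusted p = 0.128 without it). Hist1h4m, called in Treg, had a difference of 1.14 (SE 0.47, limma adjusted p = 0.382), and its change is not shown to be unequal between subsets. For Hist3h2ba, lower in both, the difference was 0.49 (SE 0.26, limma adjusted p = 0.585). Of the 41 members 32 had a positive difference (median 0.46, all genes 0.005). Without venetoclax libraries 1 and 3 of both subsets H1f0 did not pass (0.93, limma adjusted p = 0.232), and 0 genes were then called higher and 4 lower.

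The subsets also differed in level, in CPM from tables normalized apart and so with no test. H1f0 stood at 50.7 ± 6.0 CPM in Treg vehicle and 27.2 ± 4.7 CPM in Tcon vehicle, and at 49.4 ± 4.7 CPM in Treg venetoclax and 13.6 ± 1.4 CPM in Tcon venetoclax (SD, n = 4 each). H2afz was likewise higher in Treg vehicle, at 206 ± 12 CPM, than in Tcon vehicle, at 96.3 ± 21 CPM. These 2 members lay above Tcon in every vehicle library, as did 24.5% of all genes. Hist1h1c was lower, at 7.90 ± 1.0 CPM in Treg vehicle and 22.0 ± 4.9 CPM in Tcon vehicle, as was the H2B gene Hist2h2be, at 6.22 ± 0.93 CPM in Treg vehicle and 15.5 ± 2.0 CPM in Tcon vehicle. In all 6 members lay below Tcon in every vehicle library (these 2 with H2afj, Hist2h2aa1, Hist2h2aa2 and Hist3h2a), as did 12.0% of all genes.

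**Figure D5:**
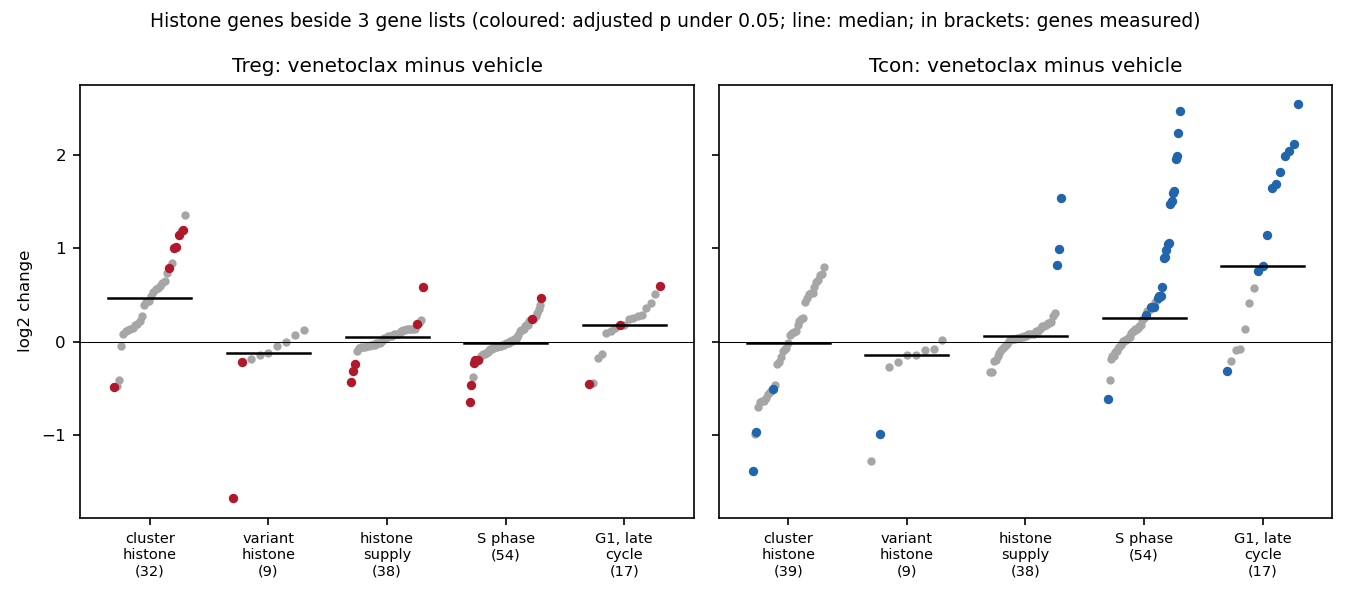
Log2 change of venetoclax over vehicle for cluster and variant histone genes beside 3 gene lists, in Treg (left) and Tcon (right); each point is a gene, coloured where its adjusted p is under 0.05, and the line is the median. In Tcon 21 of 54 S phase genes are called higher and 0 of 39 cluster histone genes, with 3.92% of all genes called higher.

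Genes that accompany histone synthesis were set beside the members from lists chosen with earlier results known. Of the 54 S phase genes, 2 rose and 5 fell in Treg (median log2 change -0.02), while 21 rose and 1 fell in Tcon (median 0.25). In Tcon these included E2f1, a transcription factor of the G1 to S step, with 218.9, 207.2, 138.1 and 153.1 normalized counts in venetoclax and 46.2, 63.0, 62.3 and 61.6 in vehicle (limma adjusted p = 0.000943). Cluster histone genes of Tcon had a median change of -0.01, with 0 of 39 called higher. Few reads lay behind most of them, which makes a change harder to call. Over all genes, 10.7% were called higher and 8.81% lower in Treg, and 3.92% higher and 2.99% lower in Tcon. Of 38 measured histone supply genes (transcription of histone genes, processing of their mRNA ends, and chaperones), 2 rose and 3 fell in Treg (median 0.05), and 3 rose and 0 fell in Tcon (median 0.06; by limma 2 were lower at an unadjusted p under 0.05). In Treg the 4 with the smallest p were Ell2, an elongation factor (log2 change 0.58), Daxx, a chaperone of the H3 variant (-0.31), Dnajc9 (-0.24) and Chaf1b, a subunit of the chromatin assembly complex CAF-1 (-0.43). In Tcon those with the smallest p included Chaf1a, the large subunit of CAF-1 (1.54), and Asf1b, an H3 and H4 chaperone (0.82), both called higher, and Lsm11, a part of the particle that cuts histone mRNA (0.31, limma adjusted p = 0.0979). Slbp, which binds the hairpin shown above, had 1771 ± 136 normalized counts in Tcon venetoclax and 1566 ± 68.2 in Tcon vehicle (SD, n = 4 each; limma adjusted p = 0.177). Of 17 genes of G1, quiescence and the late cell cycle, 2 rose and 1 fell in Treg and 10 rose and 1 fell in Tcon, where Top2a had a log2 change of 2.04 and Ccnd2 of 1.14.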

How the data were processed

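RNA was sequenced from 16 libraries of sorted CD4+ T cells, 4 in each of 4 groups. HISAT2, SAMtools and the mm10 build are named per the submitters' processing notes; the sources used here do not name the read counter, annotation, strand setting or treatment of reads that fit several places. The authors deposited 1 table for each subset, with normalized counts for every library (a signal scaled by a size factor) and, per the file headers, a log2 fold change and its p-value and adjusted p-value from their own comparison. The log2 and p-value columns the authors deposited were used only to count the members they call. Library values were whole multiples of 1 step within 0.01 for 100% of values, so reads, CPM and RPKM (over exon lengths of GENCODE, GRCm38) could be recovered.

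The Tcon table had 11211 lines, 40 of them repeats, and 11171 genes; the Treg table had 11110 lines, 43 of them repeats, and 11067 genes, of which 18 had symbols turned into dates. Members were taken by symbol. Normalized counts plus 1 were put on the log2 scale and tested with limma 3.58.1 (empirical Bayes with a mean trend, R 4.3.3), venetoclax minus vehicle within each table, with Benjamini-Hochberg adjustment over all genes and a threshold of 0.05. The change in Treg minus the change in Tcon was tested over 16 libraries and 10774 shared genes. Libraries of the same code in Treg and Tcon deviated together (Pearson's r over genes 0.20 to 0.55 in 8 of 8 codes). The codes paired the subsets only in the replicate block, an alternative, and the main test of the difference did not use them.

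Alternatives were edgeR 4.0.16 and DESeq2 1.42.0 on recovered reads, TMM and upper-quartile scaling, a pseudocount of 5, a minimum mean of 10, a replicate block, a Y-linked covariate and left-out libraries. The limma step was checked on simulated data. Described in every library were members past the threshold and the member of each type with the highest level per length; of the other lists, up to 4 genes with the smallest p (1 of them is not reported here), and besides them Slbp, Hist1h1d, Hist1h4b, Hist1h2bq, Hist1h2ae, Hist2h2be, H2afx and H2afv, chosen after their values were seen. Members, lists and tests were chosen with earlier results of these data known. Hairpins and motifs were searched by exact letters in GENCODE transcripts and RefSeq promoters (Python 3.11.15).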

Additional observations from a re-analysis of the deposited data

Results flagged for a closer look

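Among 56 groups of 4 libraries checked for the 14 members described in full, 7 held a library far from the other 3; chance gives about 1 in 20. In Tcon vehicle library 3, H2afz had 3219.1 normalized counts, with the others between 1929.2 and 2069.6, and Hist1h4c had 46.4, with the others between 18 and 20.7. In Tcon venetoclax library 3, Hist1h4n had 77.6, with the others between 38.7 and 42.9, and Hist1h4m had 79.6, with the others between 34.6 and 41.5. Both libraries also stood apart on the second principal component of all genes. H3f3b had 83.4 in Tcon vehicle library 4, with the others between 32.7 and 41.3. In Treg vehicle library 2 the neighbouring genes Hist3h2ba and Hist3h2a had 116.5 and 364.1, with the others at 103.2 to 105.1 and 288.1 to 292.6.

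The H1f0 change differed between subsets in the test of that difference, by 0.94 on the log2 scale (Treg change minus Tcon change, limma adjusted p = 0.0122); all 4 Tcon venetoclax libraries lay below all 4 Tcon vehicle libraries, while the Treg groups overlapped.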

How the results depend on the processing

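The members called in Treg or Tcon, in the subset where they were called, and the H1f0 difference kept their direction under every alternative run. In Treg, 3 members were higher with DESeq2, with the Y-linked covariate and in the authors' deposited table, 1 without both libraries numbered 3 and 0 without venetoclax libraries 1 and 3, with 2 to 5 over single libraries left out. The number lower was 5 with DESeq2 and with upper-quartile scaling and 0 without venetoclax libraries 1 and 3, with 3 to 4 over single libraries left out. In Tcon, 2 members were lower with the Y-linked covariate and 1 without venetoclax libraries 1 and 3, with 3 to 5 over single libraries left out; 0 to 1 were higher (Hist1h4b without vehicle library 3). For the difference between subsets, DESeq2 and the replicate block gave 2 higher and 1 lower, omission of both libraries numbered 3 gave 2 higher, and omission of venetoclax libraries 1 and 3 gave 0. The cause of these shifts was not tested; fewer libraries enter each omission.

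Within a subset, same-numbered libraries deviated together for numbers 2, 3 and 4 (r of 0.309, 0.430 and 0.247 in Tcon and 0.240, 0.178 and 0.276 in Treg), each the best match of its number, but not for number 1 (0.073 in Tcon and -0.015 in Treg), so the numbers were not taken as pairs; this is a hint from the data, not the design. A replicate block gave 6 lower members in Tcon, adding H3f3b and Hist4h4, and 5 higher and 3 lower in Treg, with Hist1h2bk lost and Hist1h2ae gained. Over all Tcon genes it gave 997 higher and 883 lower and DESeq2 681 and 683, against 438 and 334. Members under 10 normalized counts have few reads, and a change in them was not detectable at this depth unless large.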
